A study of Mus musculus with 11 samples.

Results

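Cdh17, Scin, Trem1, Ston1, Cacna1h, Amotl1, Dlx1, Cd244 and Afap1l1 are 9 of the 23071 gene identifiers in an RNA-sequencing table of mouse B cell leukemia, chosen by their measured FPKM values because they were low in both groups of normal progenitor B cells and high in the leukemias. The leukemia group held 5 libraries from single mice that carried 1 functional copy each of Pax5 and Ebf1 (Pax5+/- x Ebf1+/-), made from lymph node cell suspensions that were flash frozen. The Ebf1 heterozygous group (Ebf1+/-) held 3 libraries of progenitor B cells purified on columns from the bone marrow of pools of 3 to 7 mice. The wild-type group held 3 libraries prepared from pools of 3 to 7 mice in the same manner, and all mice were C57BL/6. Leukemia therefore differed from both normal groups in genotype, tissue and purification together, and from the Ebf1 heterozygous group also in the aligner listed. These cannot be told apart. Levels are in FPKM (fragments per kilobase of gene, scaled to library size), and the values that chose the 9 genes are given as a description, without a test.

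Pax5 and Ebf1 are transcription factors that commit progenitors to the B lineage and hold them there. Loss of a copy of each predisposes mice to acute leukemia of B cell progenitors, in which genes of other lineages or tissues can be transcribed. The 9 genes are best known from several settings. Cdh17 encodes a cadherin of intestine and liver, also described in mouse B cells, while Trem1 encodes an activating receptor of neutrophils and monocytes. Cd244 (2B4) encodes a receptor of natural killer cells that binds CD48 on other cells, and Cacna1h encodes the pore of a T-type calcium channel (Cav3.2) known from neurons. Scin encodes scinderin, which cuts actin filaments when calcium rises, and Afap1l1 encodes a protein bound to actin filaments. Ston1 encodes stonin 1, an adaptor-like protein of clathrin-mediated endocytosis. Amotl1 encodes an angiomotin of cell junctions that binds the Hippo pathway effector YAP. Dlx1 encodes a homeobox transcription factor of the developing forebrain and face.

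Library totals ran from 8.51 to 14.33 in units of 1e6 reads in leukemia, 11.21 to 15.31 in Ebf1 heterozygous cells and 11.09 to 14.49 in wild type. All groups expressed B lineage genes. The 10 markers listed (Vpreb1 and Cd79a among them) summed to 3269 to 4506 FPKM in leukemia, 1764 to 5093 FPKM in Ebf1 heterozygous cells and 2380 to 4059 FPKM in wild type. The normal libraries also held RNA of other marrow cells. The 11 granulocyte markers measured summed to 1.92 to 8.92 FPKM in leukemia, 2570 to 10132 FPKM in Ebf1 heterozygous cells and 583 to 3264 FPKM in wild type. Platelet markers summed to 0.186 to 1.29 FPKM in leukemia, 136 to 3801 FPKM in Ebf1 heterozygous cells and 71.9 to 420.4 FPKM in wild type. In bulk RNA, fewer cells of a type and less RNA per cell cannot be told apart. The closest libraries of the whole series were Ebf1 heterozygous replicate 2 and wild-type replicate 2 (Pearson r = 0.989 across genes), closer than any pair within a group.

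Every one of the 9 genes was higher in all 5 leukemias than in all 3 wild-type libraries. Leukemia means lay between 12.8 FPKM (Cacna1h) and 81.6 FPKM (Scin), and wild-type means between 0.164 FPKM (Cdh17) and 2.63 FPKM (Scin). Groups that did not overlap in this way, in either direction, were found for 46.3% of all genes tested between leukemia and wild type (21.2% with leukemia higher), and limma called 44.8% of them. Against Ebf1 heterozygous cells 8 of the 9 did not overlap, with 29.1% of all genes tested doing so in either direction (12.9% with leukemia higher) and 21.6% called. The exception was Afap1l1. Both comparisons share the leukemia libraries, and nothing is read from these counts, since the same values chose the genes.

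**Figure D1:**
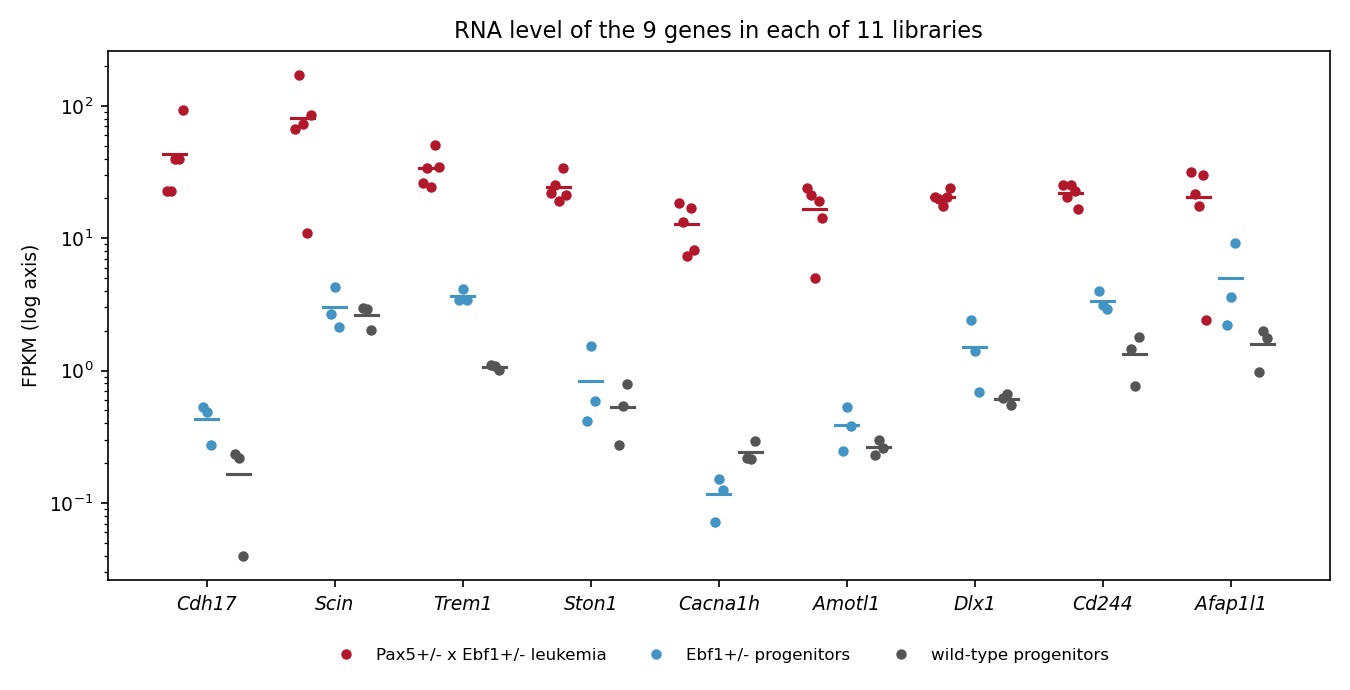
FPKM (log axis) of the 9 genes in each library: leukemia (left in each set), Ebf1 heterozygous (middle) and wild type (right). Points are libraries and bars are group means. Afap1l1 in 1 leukemia, at 2.42 FPKM, falls among the normal libraries, and Scin in 1 leukemia, at 10.9 FPKM, comes closest to them among the other genes.

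Of the 4 genes for cell surface proteins, Cdh17 showed the widest contrast. Cdh17 (chr4:11758157-11817905, plus strand, GRCm38) had 22.9, 22.7, 39.8, 39.4 and 93.5 FPKM in leukemias 1 to 5, against 0.528, 0.489 and 0.275 FPKM in Ebf1 heterozygous cells and 0.234, 0.219 and 0.0399 FPKM in wild type. The lowest leukemia was 42.9 times the highest normal library, the widest gap among the 9. In reads this was 675 to 4638 per leukemia, against 12 to 28 per Ebf1 heterozygous library and 2 to 9 per wild-type library. The 20 wild-type reads in all carry an exact Poisson 95% interval of 12.2 to 30.9 reads, for counting error only. The intestinal and liver cadherin was thus abundant in every leukemia and close to the detection limit in wild-type progenitors. The 6 epithelial markers summed to 3.24, 0.715, 0.539, 24.8 and 0.281 FPKM in leukemias 1 to 5, against 1.47 to 3.68 FPKM in Ebf1 heterozygous cells and 1.62 to 2.96 FPKM in wild type. Their part in the Cdh17 level was not tested.

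Cacna1h (chr17:25374285-25436334, minus strand) had 18.4, 13.4, 7.29, 17.1 and 8.10 FPKM in the leukemias, against 0.0714, 0.152 and 0.126 FPKM in Ebf1 heterozygous cells and 0.219, 0.215 and 0.293 FPKM in wild type. Its lowest leukemia was 24.8 times its highest normal library. It was the only one of the 9 with a lower mean in Ebf1 heterozygous cells (0.116 FPKM) than in wild type (0.243 FPKM). These levels rested on 9 to 14 and 20 to 35 reads per library.

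Trem1 (chr17:48232713-48246927, plus strand) had 26.0, 34.1, 24.5, 50.7 and 34.5 FPKM in the leukemias, against 3.41, 4.16 and 3.44 FPKM in Ebf1 heterozygous cells and 1.10, 1.09 and 1.00 FPKM in wild type. The 3 groups formed 3 separate levels. Trem1 is known from neutrophils. The granulocyte markers given above summed to at most 8.92 FPKM in the leukemias, where Trem1 was highest, and both Trem1 and those sums were higher on average in Ebf1 heterozygous cells than in wild type. Their part in the Trem1 levels was not tested.

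Cd244 (Cd244a in RefSeq, chr1:171558718-171585316, plus strand) had 25.1, 20.5, 25.3, 22.6 and 16.6 FPKM in the leukemias, against 3.98, 3.13 and 2.92 FPKM in Ebf1 heterozygous cells and 1.46, 0.763 and 1.78 FPKM in wild type. Like Trem1 it showed 3 levels without overlap, and its lowest leukemia was 4.18 times its highest normal library. Natural killer cell markers summed to 24.0 to 59.8 FPKM in leukemia, 32.5 to 108 FPKM in Ebf1 heterozygous cells and 20.2 to 34.7 FPKM in wild type, with 1 of 4 tested called higher and 1 called lower in leukemia against wild type, and 0 of 6 called higher and 3 lower against Ebf1 heterozygous cells. Their part in the Cd244 level was not tested.

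Among the genes of the cytoskeleton and of vesicle traffic, Scin (chr12:40059769-40134228, minus strand) reached the highest level. It had 67.1, 172, 72.9, 10.9 and 85.2 FPKM in the leukemias, against 2.68, 4.28 and 2.15 FPKM in Ebf1 heterozygous cells and 2.95, 2.93 and 2.03 FPKM in wild type. Leukemia 4 was far below the other leukemias and only 2.55 times the highest normal library, while the next lowest leukemia was 15.7 times as high as that library. The normal groups overlapped.

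Ston1 (chr17:88597615-88647865, plus strand) had 22.1, 25.1, 19.2, 34.2 and 21.2 FPKM in the leukemias, against 0.416, 1.52 and 0.586 FPKM in Ebf1 heterozygous cells and 0.272, 0.537 and 0.786 FPKM in wild type. The normal groups overlapped, and the lowest leukemia stood 12.6 times above the highest of them. Amotl1 (chr9:14541966-14662974, minus strand) had 23.9, 21.3, 5.03, 19.1 and 14.1 FPKM in the leukemias, against 0.248, 0.528 and 0.382 FPKM in Ebf1 heterozygous cells and 0.232, 0.301 and 0.262 FPKM in wild type. Leukemia 3 was the lowest for both genes.

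Afap1l1 (chr18:61730262-61786662, minus strand) went against a restriction to leukemia. It had 31.6, 21.6, 17.5, 30.1 and 2.42 FPKM in the leukemias, against 2.21, 3.62 and 9.15 FPKM in Ebf1 heterozygous cells and 0.980, 2.01 and 1.76 FPKM in wild type. Leukemia 5 lay below 2 of the 3 Ebf1 heterozygous libraries, and only 4 of 5 leukemias exceeded every normal library. The highest normal value came from Ebf1 heterozygous replicate 3, where the platelet markers summed to 3801 FPKM, against 136 and 246 FPKM in the other Ebf1 heterozygous libraries. The part of those cells in the Afap1l1 level was not tested.

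Dlx1 (chr2:71528113-71533981, plus strand) was the one transcription factor and the most even of the 9 across leukemias. It had 20.3, 19.8, 17.4, 20.3 and 24.2 FPKM in the leukemias, against 2.42, 1.41 and 0.686 FPKM in Ebf1 heterozygous cells and 0.616, 0.668 and 0.546 FPKM in wild type. An antisense transcript, Dlx1as, overlaps the Dlx1 gene by 3344 bases on the opposite strand and ranged from 8.31 to 12.2 FPKM in leukemia against 0.173 to 1.08 FPKM in the normal libraries. Since the sources used here do not say that counting used strand, reads of Dlx1 and Dlx1as cannot be told apart.

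The promoters of 6 of the 9 genes were found in a RefSeq table (GRCm38.p6, 250 bases before to 50 after 1 start per gene, 27025 genes), and Cdh17, Cacna1h and Afap1l1 had no entry. They fell into 2 kinds by CpG content. Dlx1, Amotl1 and Scin held 27, 21 and 16 CpG pairs, with observed-to-expected ratios of 0.767, 0.781 and 0.797, against a median of 0.389 over all genes in the table. Trem1, Ston1 and Cd244 held 3, 2 and 2 CpG pairs, with ratios of 0.152, 0.102 and 0.0982. The windows of Amotl1 and Ston1 (chr17:88626305-88626604) lie well inside the genes, whose outer starts are at chr9:14662974 and chr17:88597615. The windows of Dlx1 and Cd244 lie inside their genes too, past the outer starts at chr2:71528113 and chr1:171558718. All of these windows therefore cover internal starts, and the outer ones were not examined. The Dlx1 (chr2:71529195-71529494, plus strand) and Amotl1 (chr9:14614951-14615250, minus strand) promoters are shown for the first kind, with every CpG in capitals.
Dlx1: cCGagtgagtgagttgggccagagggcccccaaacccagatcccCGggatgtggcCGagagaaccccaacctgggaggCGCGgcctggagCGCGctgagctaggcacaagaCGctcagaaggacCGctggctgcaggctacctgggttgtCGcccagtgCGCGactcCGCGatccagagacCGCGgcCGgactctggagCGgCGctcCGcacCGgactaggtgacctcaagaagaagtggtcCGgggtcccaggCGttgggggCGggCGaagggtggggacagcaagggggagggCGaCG
Amotl1: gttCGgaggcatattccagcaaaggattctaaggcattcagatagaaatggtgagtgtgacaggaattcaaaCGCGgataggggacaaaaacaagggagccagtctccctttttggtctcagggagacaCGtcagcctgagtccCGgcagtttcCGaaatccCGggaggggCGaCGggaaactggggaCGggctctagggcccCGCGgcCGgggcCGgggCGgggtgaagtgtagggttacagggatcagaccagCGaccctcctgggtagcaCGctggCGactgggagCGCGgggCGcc
The Trem1 (chr17:48232489-48232788, plus strand) and Cd244 (chr1:171558943-171559242, plus strand) promoters are shown for the second kind, the 2 immune receptors, with capitals for the motif matches given after them.
Trem1: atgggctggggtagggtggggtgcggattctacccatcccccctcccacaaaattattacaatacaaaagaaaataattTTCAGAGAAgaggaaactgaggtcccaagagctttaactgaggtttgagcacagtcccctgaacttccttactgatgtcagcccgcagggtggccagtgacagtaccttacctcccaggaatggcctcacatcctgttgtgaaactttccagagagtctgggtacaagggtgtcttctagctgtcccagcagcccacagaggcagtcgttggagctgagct
Cd244: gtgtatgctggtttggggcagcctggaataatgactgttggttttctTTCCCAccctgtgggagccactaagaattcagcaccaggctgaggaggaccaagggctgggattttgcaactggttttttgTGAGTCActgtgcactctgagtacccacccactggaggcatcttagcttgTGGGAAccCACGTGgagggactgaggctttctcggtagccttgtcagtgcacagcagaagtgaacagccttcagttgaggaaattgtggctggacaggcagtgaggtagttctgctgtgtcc

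A shared letter motif was not found among the 6 promoters. Of 10 motifs searched on both strands, the STAT motif TTCNNNGAA occurred in Trem1 alone (8.47% of all promoters in the table hold it). Cd244 alone held the Ikaros motif TGGGAA, in 2 places (25.5% of all promoters), the AP-1 motif TGANTCA (7.93%) and the Myc E-box CACGTG (7.24%). None of the 6 held the EBF1 core CCCNNGGG (13.4%), the Runx motif TGTGGT (16.9%), the E2A E-box CAGCTG (16.1%), the ETS motif CCGGAA (15.2%), an IRF motif (3.49%) or the TATA box TATAAA (14.2%). The Cd244 matches did not overlap each other. These are letter matches in 1 window per gene, and genes with several starts have others.

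Most of the 9 genes varied more among the leukemias than the median gene did, and Dlx1 varied less. The SD of log2(FPKM + 1) over the 5 leukemias was 1.43 for Scin, 1.34 for Afap1l1, 0.83 for Amotl1, 0.81 for Cdh17, 0.56 for Cacna1h, 0.40 for Trem1, 0.31 for Ston1, 0.24 for Cd244 and 0.16 for Dlx1. The median over the 10599 genes that averaged 1 FPKM or more in the leukemias was 0.19. For 8 of the 9, Dlx1 being the exception, the SD was above the median of genes within 0.5 log2 units of the same mean level. Scin differed 15.7-fold and Afap1l1 13.1-fold between the highest and the lowest leukemia, whereas Dlx1 differed 1.39-fold.

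No leukemia was low or high throughout. Leukemia 3 was the lowest for 5 genes (Trem1, Ston1, Cacna1h, Amotl1 and Dlx1) but the highest for Cd244. Leukemia 5 was the lowest for Cd244 and Afap1l1 and the highest for Cdh17 and Dlx1. Leukemia 4 was the lowest for Scin and the highest for Trem1 and Ston1. The same animal could thus hold the top level of one of these transcripts and the bottom level of another.

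**Figure D2:**
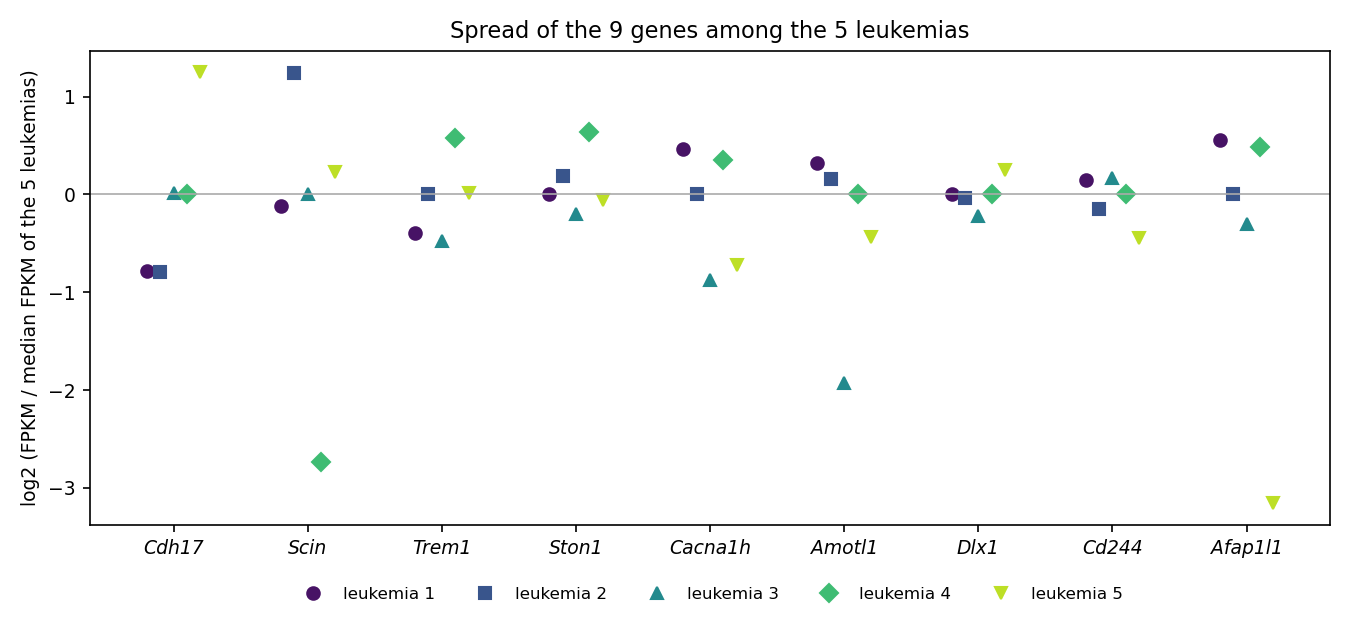
Level of each gene in leukemias 1 to 5 as log2 of FPKM over the median of the 5, where 0 is that median. Points are single animals, with the SDs given in the text (1.43 for Scin and 0.16 for Dlx1). The lowest point is a different leukemia for Scin, Amotl1 and Afap1l1.

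Between the normal groups, 6 of the 9 genes did not overlap, while no gene of the whole table passed the test. Such separation was seen for 15.6% of the genes tested (7.53% with Ebf1 heterozygous cells higher and 8.1% lower). Cdh17, Trem1, Dlx1, Cd244 and Afap1l1 were higher in every Ebf1 heterozygous library than in every wild-type library, and Cacna1h was lower. The genes had been picked for low values in both groups, so their differences here are a description. Of the 9, 5 reached a mean of 1 FPKM and so entered the fit. Cdh17 and Cacna1h did not enter it, so the share of 15.6% comes from a set of genes without them. Over all 11167 genes limma called 0.0%, with 863 genes at an unadjusted p under 0.05 and 0 called by voom.

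Trem1 showed the largest of these differences. It averaged 3.67 ± 0.422 FPKM in Ebf1 heterozygous cells and 1.06 ± 0.0533 FPKM in wild type (SD, n = 3 each). The log2 fold change of Trem1 was 1.17 (SE 0.18), given without a test since these values helped choose the genes. For Cd244 it was 0.91 (SE 0.24), for Afap1l1 1.06 (SE 0.43) and for Dlx1 0.58 (SE 0.29). Scin was close to level, at 0.13 (SE 0.25). The granulocyte markers summed to 10132, 2570 and 3677 FPKM in Ebf1 heterozygous replicates 1 to 3, against 3264, 1713 and 583 FPKM in wild type, and their part in these differences was not tested. The listed aligner differs between these groups and cannot be told apart from genotype.

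The question of whether each gene's family or its partners moved with it was asked of 99 relatives and partners in 9 lists. Most did not. Against wild type 52 of the 99 entered the test, of which 9 were called higher and 20 lower in leukemia, with a median log2 fold change of -0.37 beside -0.04 over all genes tested (20.7% of all genes were called higher and 24.1% lower). Against Ebf1 heterozygous cells, 55 entered, 5 were called higher and 13 lower, with a median of -0.30 beside -0.02 over all genes (9.31% called higher and 12.3% lower). In Ebf1 heterozygous cells against wild type 56 entered and 0 were called. All log2 fold changes here were computed after adding 1 to each FPKM value, so those of scarce transcripts are understated.

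Trem1 and its signalling adaptor were opposite. The receptor has no signalling tail of its own and works through DAP12, the product of Tyrobp. Tyrobp had 10.6, 2.97, 8.26, 2.32 and 3.45 FPKM in leukemias 1 to 5, against 279, 54.7 and 178 FPKM in Ebf1 heterozygous cells and 104, 56.3 and 105 FPKM in wild type. It fell by 3.91 on the log2 scale against wild type (SE 0.43, limma adjusted p = 0.00019) and by 4.61 against Ebf1 heterozygous cells (SE 0.57, adjusted p = 0.000927). Leukemia 4, with the most Trem1 (50.7 FPKM), had the least Tyrobp (2.32 FPKM). Tyrobp is also a gene of myeloid cells, whose markers fell alongside it, as the granulocyte sums above show, and their part in the Tyrobp difference was not tested. Syk, the kinase that DAP12 recruits, fell by 1.95 against wild type (SE 0.22, limma adjusted p = 0.000216) and averaged 97.3 ± 25.2 FPKM in leukemia (SD, n = 5), against 211 ± 38.6 FPKM in Ebf1 heterozygous cells and 378 ± 95.0 FPKM in wild type (n = 3 each).

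The rest of the Trem list held 0 genes called higher. Of 7 tested against wild type 3 were called lower (Tyrobp, Syk and Treml1), and of 8 against Ebf1 heterozygous cells 5 were (these and Trem2 and Trem3). Treml1, a platelet receptor, had 0 to 0.0645 FPKM in leukemia. Trem2, a DAP12-coupled receptor of macrophages, had 0 reads in all 5 leukemias, so that its mean in Ebf1 heterozygous cells (2.79 FPKM) was at least 65.3-fold higher than a floor of 3 reads over the 5 leukemias together. Trem3, whose gene lies next to Trem1, averaged 2.46 ± 0.654 FPKM in leukemia (SD, n = 5), against 14.9 ± 7.61 FPKM in Ebf1 heterozygous cells and 4.39 ± 2.47 FPKM in wild type (n = 3 each). Hcst (DAP10), another adaptor, was not called in either comparison with all libraries (limma adjusted p = 0.163 against wild type, or 0.0435 without leukemia replicate 5 and 0.0435 to 0.398 over the single libraries left out).

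Cd244 and the ligand of its product moved in the same direction. Cd48, which encodes that ligand and lies 95.9 kb away, had 173, 160.3, 190.3, 118 and 122 FPKM in the leukemias, against 137, 82.0 and 69.8 FPKM in Ebf1 heterozygous cells and 85.9, 73.2 and 59.5 FPKM in wild type. It rose by 1.05 on the log2 scale against wild type (SE 0.19, limma adjusted p = 0.00214), and gave 0.70 against Ebf1 heterozygous cells (SE 0.24, adjusted p = 0.0714). Without Ebf1 heterozygous replicate 1 that p was 0.0148, within a range of 0.0148 to 0.218 when single libraries were left out. Sh2d1a, which encodes SAP, the adaptor for the Cd244 receptor, averaged 0.390 FPKM in leukemia, against 1.34 FPKM in Ebf1 heterozygous cells and 0.850 FPKM in wild type, under the level that entered the test against either group. Sh2d1b1, which encodes the related adaptor EAT-2, reached 6.81 FPKM in leukemia 1 and at most 0.563 FPKM in the other leukemias.

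Of 9 SLAM family and adaptor genes tested against wild type, 4 were called higher (Cd48, Ly9, Cd84 and Fyn) and 2 lower (Slamf7 and Slamf9). Against Ebf1 heterozygous cells 2 of 9 were called higher (Ly9 and Fyn), and Ly9 lost that call in 6 of the 8 fits that left out 1 library, without leukemia replicate 1, 3, 4 or 5 or Ebf1 heterozygous replicate 2 or 3 (limma adjusted p 0.0351 to 0.14). Fyn, the Src-family kinase that SAP recruits, averaged 44.5 ± 5.24 FPKM in leukemia (SD, n = 5), against 28.9 ± 5.00 FPKM in Ebf1 heterozygous cells and 19.3 ± 2.02 FPKM in wild type (n = 3 each). Its log2 fold change was 1.17 against wild type (SE 0.12, limma adjusted p = 0.000118) and 0.61 against Ebf1 heterozygous cells (SE 0.14, adjusted p = 0.0168, or 0.0537 without Ebf1 heterozygous replicate 2 and 0.0122 to 0.0537 over the single libraries left out). Slamf7, a receptor of activated lymphocytes and plasma cells, fell by 1.52 against wild type (SE 0.34, limma adjusted p = 0.00608).

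Calcium channel genes moved in both directions against wild type. In that comparison 5 of 17 listed genes entered the test, of which 2 were called higher (Cacnb2 and Cacna1b) and 2 lower (Cacna1e and Cacna2d1). Set against Ebf1 heterozygous cells, 2 of 4 were called higher (Cacnb2 and Cacna1b) and 0 lower. Cacna1e and Cacna2d1, both lower on average in leukemia than in Ebf1 heterozygous cells, were under the level that entered that test. Cacnb2, which encodes an auxiliary beta subunit, had 5.10, 4.39, 3.60, 7.12 and 6.37 FPKM in the leukemias, against 0.191, 0.401 and 0.589 FPKM in Ebf1 heterozygous cells and 0.203, 0.303 and 0.434 FPKM in wild type. Every leukemia was above every normal library, while the normal groups overlapped. It rose by 2.24 against wild type (SE 0.21, limma adjusted p = 8.86e-05) and by 2.16 against Ebf1 heterozygous cells (SE 0.23, adjusted p = 0.000386). Cacna1b, the pore of N-type channels, averaged 3.38 ± 1.34 FPKM in leukemia (SD, n = 5), against 0.462 ± 0.182 FPKM in Ebf1 heterozygous cells and 0.480 ± 0.0455 FPKM in wild type (n = 3 each), and was called against both.

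The other pore genes of T-type channels were not raised. Cacna1g had 0 reads in all 5 leukemias and Cacna1i at most 0.535 FPKM. Cacna1e, the R-type pore, averaged 0.547 FPKM in leukemia, against 1.63 FPKM in Ebf1 heterozygous cells and 7.29 FPKM in wild type, and fell by 2.35 on the log2 scale against wild type (SE 0.35 and limma adjusted p = 0.000934). Cacna2d1, an auxiliary subunit, had 0 reads in all 5 leukemias. Its wild-type mean of 2.92 FPKM was at least 447-fold higher than the floor of 3 reads over the 5 leukemias. Its Ebf1 heterozygous mean was at least 314-fold higher than that floor.

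**Figure D3:**
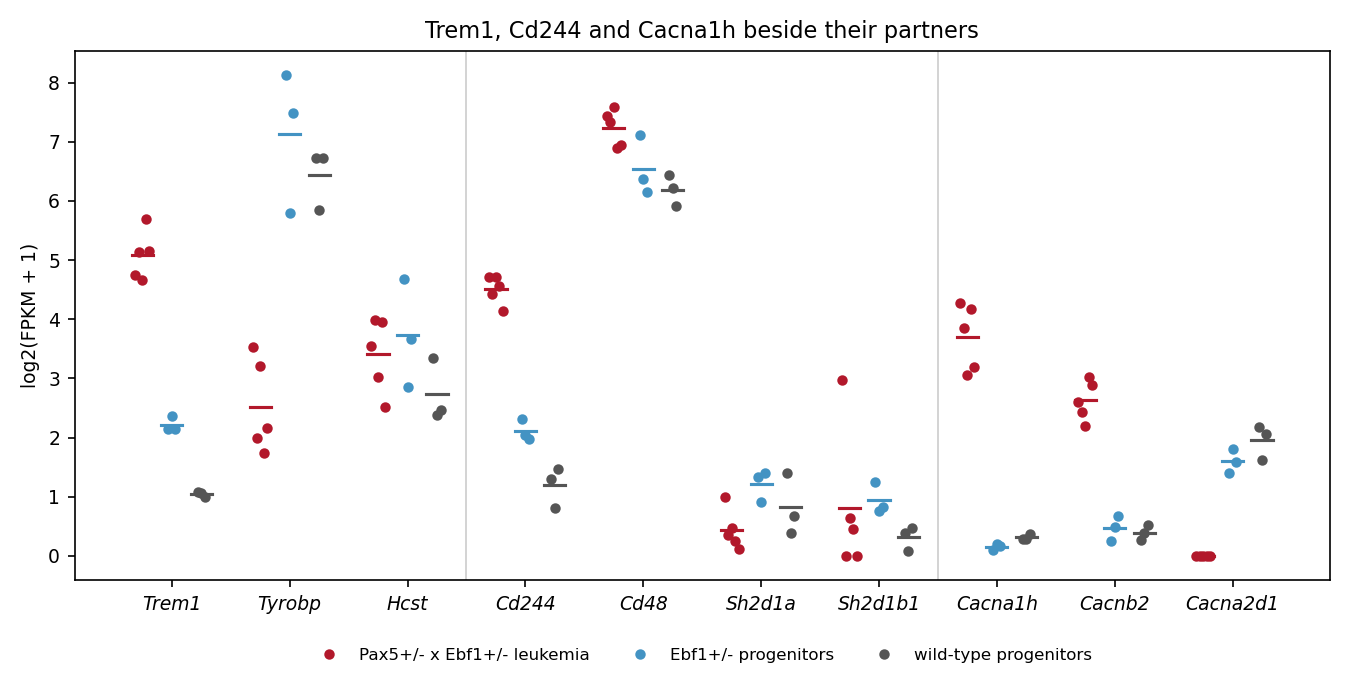
Levels, as log2(FPKM + 1), of Trem1, Cd244 and Cacna1h (first of each set) in each library, leukemia left, Ebf1 heterozygous in the middle, wild type right. Trem1 and Cd244 stand beside their partners, and Cacna1h beside genes for auxiliary subunits of voltage-gated calcium channels. Whether those subunits serve the Cacna1h channel was not tested. Bars are group means. Tyrobp runs opposite to Trem1 (2.32 to 10.6 FPKM in leukemia), Cd48 is high in every group, and Cacnb2 is raised beside Cacna1h while Cacna2d1 sits at 0 in leukemia.

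Relatives of the cytoskeletal and junction genes mostly did not rise. Gsn (gelsolin), the nearest relative of Scin listed, averaged 41.2 ± 33.7 FPKM in leukemia (SD, n = 5), against 71.7 FPKM in Ebf1 heterozygous cells and 76.8 FPKM in wild type (n = 3 each), and was not called (-1.23 on the log2 scale against wild type, with SE 0.57 and limma adjusted p = 0.105, or 0.0181 without leukemia replicate 2 and 0.0181 to 0.244 over the single libraries left out). Of 5 gelsolin family genes tested, 1 was called lower against wild type (Flii) and 0 against Ebf1 heterozygous cells. Among cadherins and catenins only the catenin genes Ctnna1, Ctnnb1, Ctnnd1 and Jup entered the test, and 1 of these 4 was called higher against wild type. This was Ctnna1, at 47.5 ± 3.20 FPKM in leukemia (SD, n = 5) against 36.4 ± 5.43 FPKM in wild type (n = 3; limma adjusted p = 0.0212, or 0.0692 without wild-type replicate 1 and 0.0151 to 0.0692 over the single libraries left out). The untested Cdh5 and Cdh1 averaged 0.0304 and 0.00365 FPKM in leukemia, against 1.54 and 0.998 FPKM in Ebf1 heterozygous cells and 2.06 and 1.07 FPKM in wild type. Of the listed cadherins, Cdh3 alone was higher in leukemia than in both normal groups, at 0.0131 FPKM. Cdh16, the cadherin closest to Cdh17, had 0 FPKM in every library.

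Of the other angiomotins, Amot averaged 1.02 FPKM in leukemia, against 0.869 FPKM in Ebf1 heterozygous cells and 0.614 FPKM in wild type. Amotl2 averaged 0.0166, 0.879 and 0.242 FPKM in the same order. Its Ebf1 heterozygous mean rested on replicate 3, at 2.22 FPKM, against 0.249 and 0.170 FPKM in replicates 1 and 2. Among Hippo pathway genes 0 of 8 tested were called higher and 3 lower against wild type. The kinase gene Stk4 (MST1) averaged 69.9 ± 6.22 FPKM in leukemia (SD, n = 5), against 106 ± 23.2 FPKM in Ebf1 heterozygous cells and 139 ± 11.3 FPKM in wild type (n = 3 each), a fall by 0.98 against wild type (SE 0.10, limma adjusted p = 0.000133). The other 2, Stk3 and Sav1, each lost their call in 5 of the 8 fits that left out 1 library.

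For Ston1, the nearest relative Ston2 was near 0 in leukemia (at most 0.0119 FPKM). The AP-2 adaptor complex, which stonins bind, showed small differences. Of 7 genes tested on that list against wild type, Ap2a1, Ap2b1, Ap2m1, Ap2s1 and Eps15 were called lower, by 0.33 (Ap2m1) to 0.73 (Eps15) on the log2 scale, and Ap2a2 was called higher (0.59, SE 0.13, limma adjusted p = 0.00648). Against Ebf1 heterozygous cells 0 of 10 were called higher and 3 lower, and Ap2a1, Ap2s1 and Eps15 each lost that call in 2 to 6 of the 8 fits that left out 1 library. The 5 other Dlx genes were under the level that entered the test, and Dlx2, the neighbour of Dlx1, had at most 0.0564 FPKM in any leukemia.

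Afap1, the founding relative of Afap1l1, was lower in leukemia than in wild type. It averaged 0.607 ± 0.702 FPKM in leukemia (SD, n = 5), against 3.37 ± 0.967 FPKM in Ebf1 heterozygous cells and 2.66 ± 0.195 FPKM in wild type (n = 3 each), a log2 fold change of -1.29 against wild type (SE 0.34, limma adjusted p = 0.0134). Of the Src-family kinases, to which AFAP proteins can bind, Lck rose and Lyn and Fgr fell in both comparisons. Lck, known from T cells, had 66.6, 57.4, 73.7, 106 and 51.7 FPKM in the leukemias, against 23.6, 22.3 and 14.9 FPKM in Ebf1 heterozygous cells and 14.6, 18.9 and 12.4 FPKM in wild type (2.12 against wild type, SE 0.23, limma adjusted p = 0.000159). Of the T cell markers 0 of 8 tested were called in leukemia against wild type, and against Ebf1 heterozygous cells 0 of 9 were called higher and 3 lower. Fgr is a myeloid kinase, and it fell by 1.96 on the log2 scale against wild type (SE 0.28, limma adjusted p = 0.000711) beside the lower granulocyte sums, whose part was not tested.

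**Figure D4:**
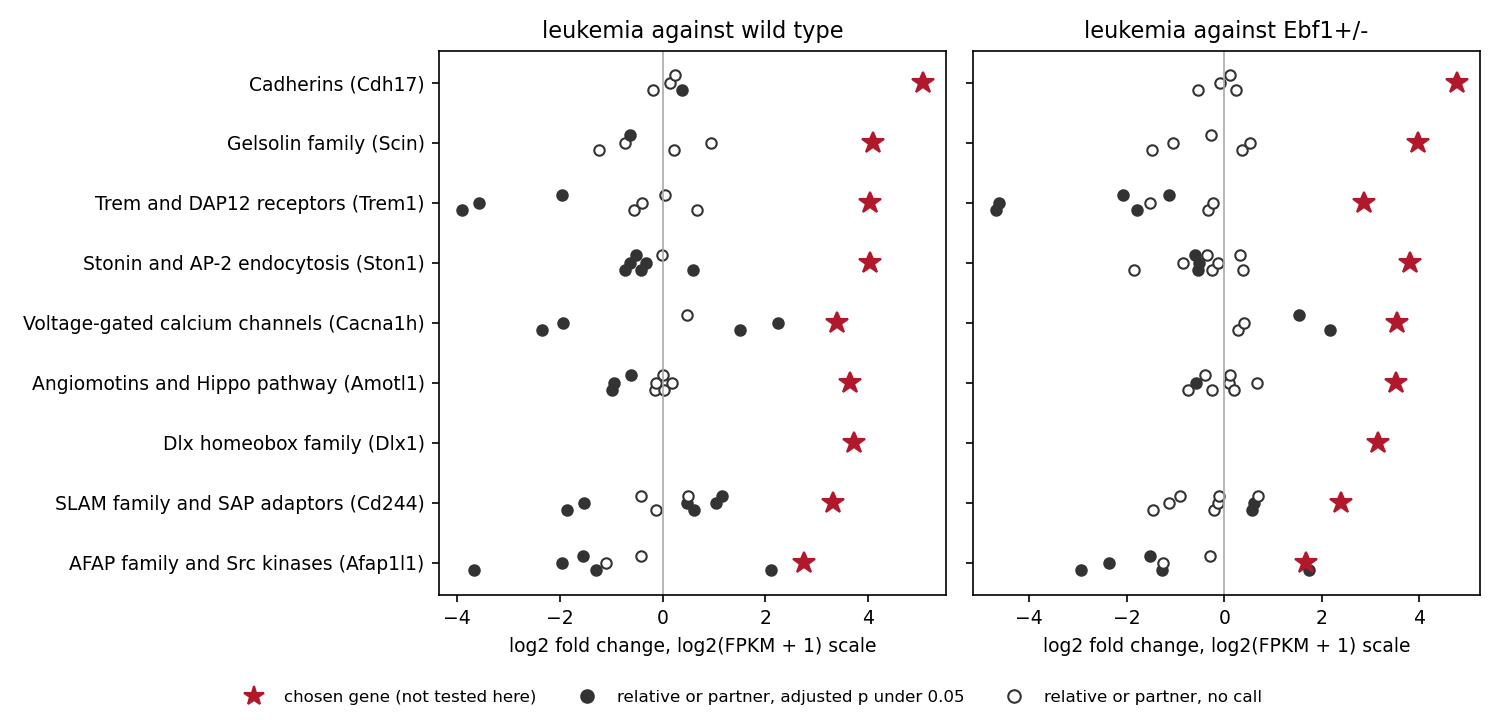
Log2 fold changes, on the log2(FPKM + 1) scale, of the relatives and partners in 9 lists (circles, filled where limma's adjusted p was under 0.05) and of the chosen gene of each list (star, a description). Leukemia is set against wild type on the left and against Ebf1 heterozygous cells on the right. Filled circles to the right of 0 number 9 and 5, and those to the left 20 and 13.

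Among genes lying beside the 9 that entered the test, more were called higher in leukemia than lower. The 3 protein-coding genes on each side gave 54 positions, of which 29 entered the test against wild type. Of these 10 were called higher and 4 lower (20.7% and 24.1% of all genes), with a median log2 fold change of 0.21 beside -0.04 over all genes. Against Ebf1 heterozygous cells 9 of 30 were called higher and 2 lower (9.31% and 12.3% of all genes), with a median of 0.18 beside -0.02. In Ebf1 heterozygous cells against wild type, 0 of 31 were called. The first 2 of these comparisons share the leukemia libraries. Their filter averages more leukemia than normal libraries, so it passes genes high in leukemia more readily than genes high in normal cells. Untested neighbours differed in both directions. Sh3tc2 averaged 0 FPKM in leukemia, against 1.78 FPKM in Ebf1 heterozygous cells and 1.81 FPKM in wild type, and Gtf2a1l was also lower. Etv1 averaged 0.856, 0.165 and 0.146 FPKM in the same order, and Itln1 was also higher.

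Gem, 43.2 kb before Cdh17, showed the largest of these changes on the log2(FPKM + 1) scale. This gene for a small GTPase that binds beta subunits of calcium channels had 12.3, 32.6, 16.2, 12.8 and 38.3 FPKM in leukemias 1 to 5, against 4.08, 3.00 and 1.41 FPKM in Ebf1 heterozygous cells and 2.44, 3.10 and 2.23 FPKM in wild type. It rose by 2.56 against wild type (SE 0.37, limma adjusted p = 0.000755) and by 2.53 against Ebf1 heterozygous cells (SE 0.41, adjusted p = 0.00367). Leukemia 5 was the highest for both Cdh17 and Gem, but leukemia 2 was the lowest for Cdh17 and the second highest for Gem.

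Ppp1r21 ends 9.25 kb before Ston1 and had 48.3, 61.5, 42.9, 110 and 54.6 FPKM in the leukemias, against 25.0, 22.5 and 21.1 FPKM in Ebf1 heterozygous cells and 26.3, 23.8 and 23.3 FPKM in wild type. It rose by 1.26 against wild type (SE 0.26, limma adjusted p = 0.00468). The order of the leukemias was partly shared, with leukemia 4 the highest and leukemia 3 the lowest for both Ston1 and Ppp1r21. Lsmem1, 42.2 kb from Scin, averaged 6.20 ± 1.90 FPKM in leukemia (SD, n = 5), against 1.02 ± 0.447 FPKM in Ebf1 heterozygous cells and 1.54 ± 0.341 FPKM in wild type (n = 3 each; limma adjusted p = 0.000819 against wild type). Leukemia 4, the lowest for Scin, was not the lowest for Lsmem1.

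Beside Dlx1, Metap1d (2.92 kb away, a mitochondrial aminopeptidase) and Pdk1 (339 kb away, a kinase that restrains pyruvate dehydrogenase) were called higher in both comparisons, while Slc25a12 and Itga6 were called lower against wild type. Pdk1 averaged 38.3 ± 6.74 FPKM in leukemia (SD, n = 5), against 15.4 ± 3.00 FPKM in Ebf1 heterozygous cells and 10.1 ± 3.52 FPKM in wild type (n = 3 each). Metap1d lost its call against Ebf1 heterozygous cells without replicate 2 or replicate 3 of that group (limma adjusted p 0.00229 to 0.0665 over single libraries left out), and Slc25a12 lost its call against wild type without wild-type replicate 2 or replicate 3 (0.011 to 0.0926). Fut4, 85.5 kb from Amotl1 and known for making the Lewis x sugar, averaged 5.32 ± 1.57 FPKM in leukemia (SD, n = 5), against 1.93 ± 0.497 FPKM in Ebf1 heterozygous cells and 0.989 ± 0.117 FPKM in wild type (n = 3 each).

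Tpsg1 (tryptase gamma) overlaps the end of Cacna1h by 158 bases on the opposite strand. It averaged 1.66 FPKM in leukemia, against 0.0396 FPKM in Ebf1 heterozygous cells and 0.0247 FPKM in wild type, and was called higher, but without strand its reads and those of Cacna1h cannot be told apart there. Ly9, 3.30 kb after Cd244, rose by 0.48 on the log2 scale against wild type (SE 0.16 and limma adjusted p = 0.0321) and lost that call without leukemia replicate 1, 4 or 5 or wild-type replicate 2 or 3 (adjusted p 0.0182 to 0.125 over single libraries left out). The other neighbour called higher was Pdp1 beside Cdh17 (0.60, SE 0.12, adjusted p = 0.0046). Alyref2 and Slamf7 beside Cd244 were called lower against wild type, Alyref2 not without wild-type replicate 1 (adjusted p = 0.0718, the highest of a range from 0.0157). None of the 3 tested neighbours of Afap1l1 was called in leukemia against wild type or Ebf1 heterozygous cells.

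**Figure D5:**
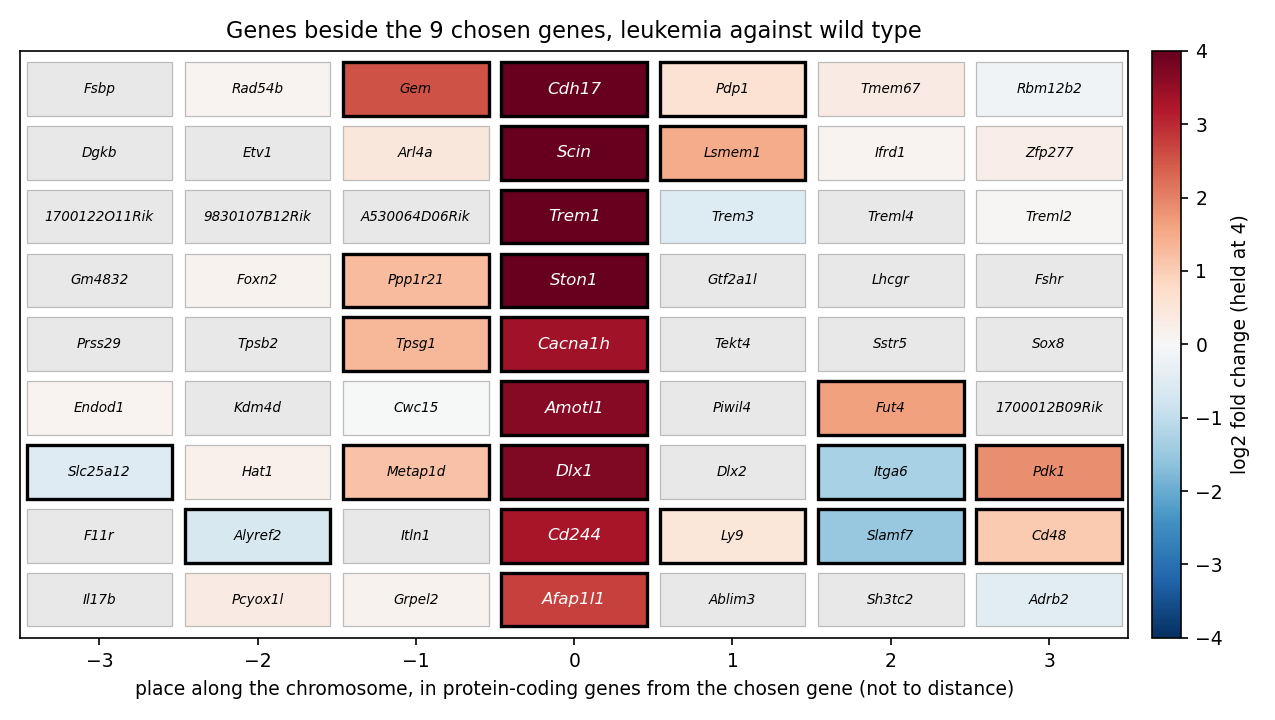
The 3 protein-coding genes on each side of the chosen gene (centre column), coloured by log2 fold change of leukemia against wild type on the log2(FPKM + 1) scale. Places are ranks along the chromosome, not distances. Thick outlines mark neighbours called by limma (10 higher, 4 lower) and the chosen genes, and grey boxes are genes with too little RNA to enter the test.

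The strict pattern was shared with other genes of the table. Genes under 1 FPKM in all 6 normal libraries and at 1 FPKM or more in all 5 leukemias numbered 63, and only 3 of the 9 (Cdh17, Cacna1h and Amotl1) were among them. Genes whose lowest leukemia was at least 5 times their highest normal library numbered 30, with 6 of the 9 among them. Of the other genes in the first set, those with the most RNA in their lowest leukemia were Rnase11, Galnt14, Plch1, Dyrk4, Msrb3 and Cyyr1. Rnase11, a ribonuclease A family gene, had 16.7 to 52.7 FPKM in leukemia, against at most 0.375 FPKM in Ebf1 heterozygous cells and at most 0.194 FPKM in wild type. Plch1, a phospholipase C gene, had 7.89 to 11.4 FPKM in leukemia, against at most 0.242 FPKM in Ebf1 heterozygous cells and at most 0.134 FPKM in wild type.

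By Pearson correlation of log2(FPKM + 1) over the 11 libraries, the gene most like each of 8 of the 9 was Rnase11 for Cdh17 (r = 0.992), Fubp1 for Scin (0.969), Gimap4 for Trem1 (0.986), Plch1 for Ston1 (0.994), Adcy3 for Cacna1h (0.988), Igsf5 for Amotl1 (0.993), Dlx1as for Dlx1 (0.998) and Pglyrp2 for Cd244 (0.993). The 36 pairs among the 9 themselves gave r from 0.613 to 0.986. These libraries fall into leukemia and normal groups and share their depth, so that any gene that separates the groups gives a high value.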

How the data were processed

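RNA of 11 mouse samples was sequenced. As deposited by the authors, FPKM levels (fragments per kilobase, scaled to library size) fill 1 table of 23071 gene identifiers, of which 25 were date serial numbers as spreadsheets make and were not named. The submitters' processing notes list BWA 0.7.12 for leukemia and wild type, and TopHat2 and Cufflinks for Ebf1 heterozygous samples, on build mm10 (GRCm38). How reads were counted, with which annotation and whether by strand, is not given in the sources used here. Whole reads, within 0.001 read, were recovered for all 17380 genes above 0 (100.0%) by finding a gene length and a library total for each. The reads carry no molecular identifiers, so copies of 1 molecule may be counted more than once and an interval on them covers counting error only.

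Levels were set on the scale log2(FPKM + 1). Genes that averaged 1 FPKM or more over a comparison's libraries entered a fit of the 2 groups in limma 3.58.1 (R 4.3.3, trended eBayes, two-sided) and called at a Benjamini-Hochberg adjusted p under 0.05. Tables and figures used Python 3.11.15, pandas 2.3.3, NumPy 2.4.6 and Matplotlib 3.10.9. The script was tested on simulated data. Positions, neighbours and promoters came from RefSeq GRCm38.p6.

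Members and lists were chosen with earlier results of these data known. The text names the 9 genes, per list at most 4 called genes of smallest p with set partners and closest relatives, every called neighbour, 6 genes of the strict pattern and the genes of highest correlation with members. A few genes that the rule names are not reported here. Also named, outside that rule, are the remaining called genes of lists with few calls. Immunoglobulin and T cell receptor segments, Gm and Rik symbols and small RNA genes were left out.

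Deviations from group means of Ebf1 heterozygous and wild-type libraries with the same number correlated at 0.65, 0.33 and 0.69. These numbers may therefore pair the samples, although the labels state no shared day. The main fits did not use this pairing, so their SEs and p-values ignore it, and the replicate block was fitted as an alternative. The labels name pools or single mice per sample. Alternatives were another pseudocount, other filters, other scalings, 1 fit of all groups, a replicate block, voom on the recovered reads and leaving out each library.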

Additional observations from a re-analysis of the deposited data

Results flagged for a closer look

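In a group of 5 leukemias, 1 animal was counted as far from the others where its gap to the nearest of them exceeded 0.71 of the whole range. Gap and range were taken on the log2(FPKM + 1) scale, while the values below are in FPKM (Dixon's test, which marks about 1 in 20 groups by chance). This was met by 5 of 75 genes examined, 1 of them among the 9. Afap1l1 was at 2.42 FPKM in leukemia 5, against 17.5 to 31.6 FPKM in the others. Dyrk4, a gene of the strict pattern, was also low in leukemia 5 (6.06 FPKM, others 9.33 to 10.3 FPKM). Vash2, a gene correlated with Cdh17, was high in leukemia 5 (9.21 FPKM, others 5.06 to 5.86 FPKM), where Cdh17 was highest too. Igsf5, the gene most correlated with Amotl1, was low in leukemia 3 (1.49 FPKM, others 3.95 to 5.26 FPKM), which also had the least Amotl1 (5.03 FPKM). Vash2 and Igsf5 were chosen by correlation over these same libraries, so nothing is read from their sharing a leukemia with Cdh17 and Amotl1. Sh2d1b1 was high in leukemia 1 (6.81 FPKM, others 0 to 0.563 FPKM).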

How the results depend on the processing

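Single genes were followed under another pseudocount, other scalings, 1 fit of all groups, the replicate block and leaving out each library. The other filters and voom were not used for them. No difference of the 9 genes between leukemia and either normal group changed sign under any of the alternatives followed. The genes were chosen for these differences, so nothing is read from that. Of 65 called results for other named genes 44 stayed called under each of these in which the gene entered the test, and none reversed. With the replicate block, leukemia against Ebf1 heterozygous cells gave 944 calls instead of 2409, and 4 neighbours called higher instead of 9. Leukemia shares only a number with the normal libraries (correlations of deviations -0.14 to 0.07, and replicate 2 alone matched its own number best). Ebf1 heterozygous cells against wild type gave 0 calls, also with the block, but 3 with a pseudocount of 0.1, 1 with quantile scaling and 23 with all groups in 1 fit. Voom called 4750 genes in leukemia against wild type (4914 by limma) and 2167 against Ebf1 heterozygous cells. Quantile scaling moved the median of all genes against Ebf1 heterozygous cells by 0.11 and the split of calls to 1551 higher and 1125 lower, against 1039 and 1370 as deposited. Leaving out single libraries gave 3794 to 4705 calls against wild type, 1697 to 2640 against Ebf1 heterozygous cells and 0 to 5 between the normal groups (5 without Ebf1 heterozygous replicate 3). Against Ebf1 heterozygous cells it gave 3 to 6 relatives called higher (3 without Ebf1 heterozygous replicate 2), 9 to 15 lower, and 6 to 11 neighbours higher and 2 to 4 lower (4 without Ebf1 heterozygous replicate 1). The causes were not tested. Reads of 2 to 35 per wild-type library limit the precision of Cdh17, Ston1, Cacna1h, Amotl1 and Dlx1 there.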
